A study of Homo sapiens with 15 samples.

Results

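The genes described here are FN1, which encodes the matrix glycoprotein fibronectin, VIM, which encodes the intermediate filament protein vimentin, and 8 other genes of cell adhesion, mesenchymal regulation and stromal matrix: the cadherins CDH2 and CDH11, the transcription factors SNAI2, ZEB1, ZEB2 and TWIST1, the surface protein gene THY1 and the matrix proteoglycan gene LUM. These 10 genes were taken by name from a list, and they are 10 of the 21493 genes counted in each library. RNA was sequenced from NCI-H295R, a human adrenocortical carcinoma line that makes steroids. Cells that received the pcDNA3.T7 delta-NFAT3 plasmid gave 3 libraries and are called ΔNFATC4. Their transgene is an NFATC4 without its N-terminal domain, which stays active without calcineurin. Cells that received the empty pcDNA3.T7 plasmid gave 4 libraries and are called mock. RNA of both was taken 3 days after transfection, so the cells were a transfected culture and the share that took up the plasmid was not analysed here. Another 4 libraries are labelled NFATC4-KO (replicates 1, 2, 3 and 5), from cells edited with CRISPR/Cas9 and grown from single cells, and 4 are labelled control (replicates 1 to 4), from cells given empty plasmids in parallel. The labels give the ΔNFATC4, mock and control cells the wild-type genotype, and do not say which clone each NFATC4-KO library came from or whether libraries of a group came from separate cultures, so p values measure only the spread between these libraries.

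Fibronectin is secreted, binds integrins and is assembled into fibrils around the cell. Cadherins hold neighboring cells together through calcium-dependent contacts that are tied to actin by catenins, and E-cadherin, encoded by CDH1, is the epithelial form. SNAI2, ZEB1, ZEB2 and TWIST1 are transcription factors known for repressing CDH1 during the change from an epithelial to a mesenchymal state. The adrenal cortex comes from mesoderm, and its steroid-making cells are known to carry vimentin and N-cadherin, the product of CDH2.

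Depth was 18.8 to 28.2 M counts per library. Levels are given as CPM, the counts over the total of the library after scaling by TMM factors over all 15 libraries, and a count of 0 allows up to 3 counts for counting error only. All 12 adrenocortical genes checked, among them NR5A1, STAR and CYP11A1, were tested, and their summed level was 4366 to 6332 CPM in every library. SCARB1, at 2854 to 3848 CPM, was the largest part of this sum, and single genes varied more, with STAR at 211 to 900 CPM. NFATC4 RNA was higher in ΔNFATC4 cells, at 329.6, 359 and 342 CPM, than in mock cells, at 91.3, 93.4, 106 and 87.5 CPM in replicates 1 to 4, and reads of the plasmid count towards the gene. It did not follow the other labels. Replicates 1 and 2 of the libraries labelled control held 114 and 109.9 CPM and replicates 3 and 4 held 44.8 and 54.0 CPM, while replicates 1, 2, 3 and 5 of those labelled NFATC4-KO held 92.7, 85.4, 57.5 and 53.6 CPM. Numbers 1 and 2 therefore stood apart from numbers 3 to 5 under both labels, and any direction given between them rests on the labels. Counts over a whole gene need not fall when it is edited, so NFATC4 RNA does not settle whether these labels are right, and NFATC4 protein, which the study also examined, was not analysed here.

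The promoters of FN1 and VIM are shown because FN1 had the lowest p of these genes in ΔNFATC4 cells and VIM was the most abundant of them, and the capitals mark where either sequence holds, on either strand, the NFAT core GGAAA or the cyclic AMP response element TGACGTCA. They are the 250 bases before the transcription start, read 5′ to 3′ on the gene's strand, from RefSeq on GRCh38.p14. The table held an entry for 5 of the 10 genes, FN1, VIM, CDH2, ZEB1 and ZEB2, and none for CDH11, SNAI2, TWIST1, THY1 and LUM.
FN1, chr2:215436069-215436318, minus strand: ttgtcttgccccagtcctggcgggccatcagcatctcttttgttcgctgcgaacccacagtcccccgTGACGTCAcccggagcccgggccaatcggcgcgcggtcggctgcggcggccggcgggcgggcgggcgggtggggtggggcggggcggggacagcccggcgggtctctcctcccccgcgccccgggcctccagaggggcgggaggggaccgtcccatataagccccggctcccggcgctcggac
VIM, chr10:17227991-17228240, plus strand: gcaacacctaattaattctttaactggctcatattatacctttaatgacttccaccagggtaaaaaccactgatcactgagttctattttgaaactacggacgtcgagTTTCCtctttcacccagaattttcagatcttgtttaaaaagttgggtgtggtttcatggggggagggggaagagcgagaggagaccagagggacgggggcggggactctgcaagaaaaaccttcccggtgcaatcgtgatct

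The FN1 window was 76.4% G and C, and held 1 cyclic AMP response element, starting 183 bases before the start, a CCAAT box 162 bases before it and 6 GC boxes, GGGCGG on either strand, of which the 3 that start 129, 125 and 121 bases before it overlap, as do those that start 107 and 102 bases before it. It held no GGAAA and no CAGGTG, the E-box that SNAI and ZEB proteins bind. The VIM window was 46.0% G and C and held 1 NFAT core on the minus strand, 142 bases before the start, and 1 GC box. Of 35116 promoter entries of the same length, 1.646% held TGACGTCA, 55.65% GGAAA, 42.64% GGGCGG, 32.01% CCAAT and 17.49% CAGGTG, each searched on both strands. A match describes letters only, and no binding data were used here.

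To ask which of the 10 genes moved with active NFATC4, ΔNFATC4 cells were compared with mock cells. FN1, THY1 and LUM were higher in ΔNFATC4 cells, VIM, CDH11 and SNAI2 were lower, and CDH2, ZEB1, ZEB2 and TWIST1 did not pass the test. FN1 was 3.69-fold higher, while none of the 3 that fell moved by as much as 2-fold. All 10 genes were tested. Over all 14094 genes tested, 7.69% were called higher and 6.1% lower at an adjusted p under 0.05 in edgeR, and the 10 genes had a median log2 fold change of −0.02 beside 0.00 for all genes. THY1 and LUM had enough counts to be tested only through the ΔNFATC4 libraries, so their place among the tested genes already depended on a higher level there.

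FN1 (ENSG00000115414) lies on the minus strand of chromosome 2 from 215360440 to 215436073. It stood at 53.8, 56.5 and 58.6 CPM in ΔNFATC4 replicates 1 to 3 and at 11.5, 14.4, 17.8 and 17.2 CPM in mock replicates 1 to 4. Each ΔNFATC4 library held more than 3 times the level of the highest mock library. The means were 56.3 ± 2.40 CPM (SD, n = 3) and 15.2 ± 2.87 CPM (SD, n = 4), a log2 fold change of 1.88 (SE, the standard error, 0.10, edgeR adjusted p = 7.75e-10), which ranked 13 by p among all genes. The call was lost when all 15 libraries were fitted together (log2 fold change 1.88, adjusted p = 0.326 from edgeR), a fit whose spread takes in the 8-library split of FN1 described further on. VIM (ENSG00000026025, plus strand of chromosome 10, 17228241 to 17237593) was at 834, 869.7 and 813 CPM in ΔNFATC4 replicates 1 to 3. In mock replicates 1 to 4 it was at 1105, 916, 1003 and 1028 CPM. All 3 ΔNFATC4 libraries were under the lowest mock library, and the groups did not overlap. VIM fell by 0.27 on the log2 scale (SE 0.06, edgeR adjusted p = 0.00612), a 1.21-fold lower level, and lost the call without ΔNFATC4 replicate 3 (adjusted p = 0.0546 from edgeR) and with all 15 libraries fitted together (adjusted p = 0.553).

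**Figure D1:**
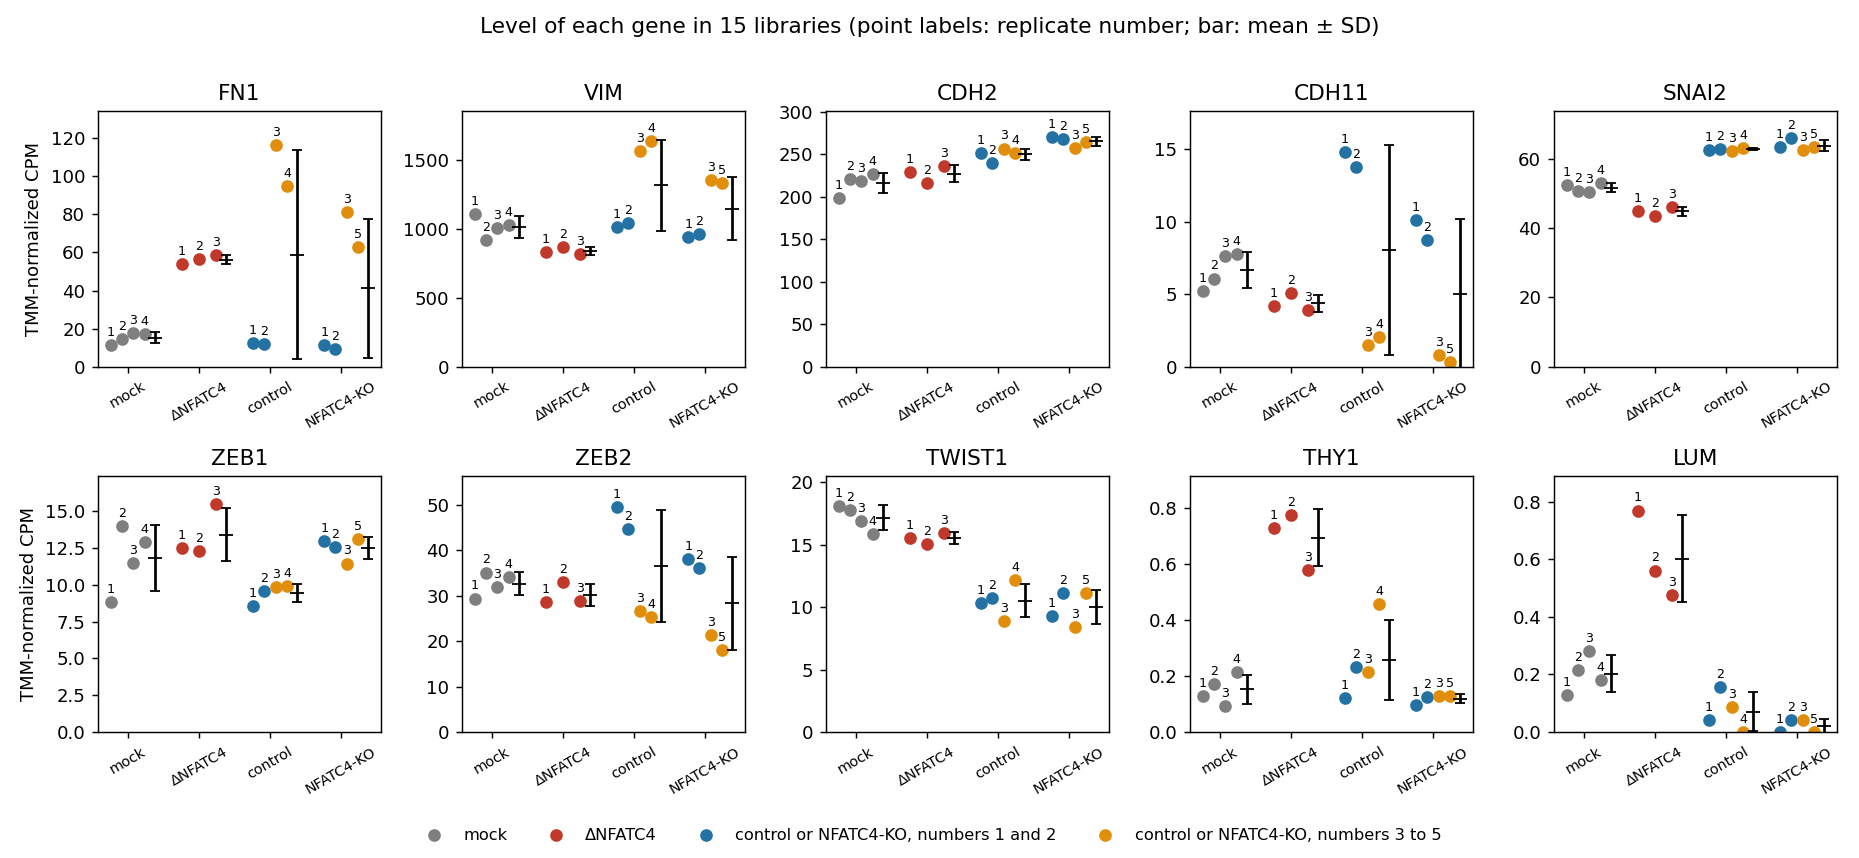
Level of the 10 genes in all 15 libraries, in TMM-normalized CPM on linear axes from 0, with 1 point per library labelled by replicate number and bars for the group mean ± SD, cut off at 0. FN1 sits between 53.8 and 58.6 CPM in the ΔNFATC4 libraries and between 11.5 and 17.8 CPM in mock, while in FN1, VIM, CDH11 and ZEB2 numbers 1 and 2 lie apart from numbers 3 to 5 under both the control and the NFATC4-KO label.

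Of the cadherins, CDH11 fell and CDH2 did not pass the test. CDH11 (ENSG00000140937, chromosome 16, minus strand, 64943753 to 65126112) encodes cadherin-11, a cadherin of mesenchymal cells. It was at 4.17, 5.05 and 3.90 CPM in ΔNFATC4 replicates 1 to 3, from 103, 117 and 74 counts, and at 5.21, 6.08, 7.63 and 7.79 CPM in mock replicates 1 to 4. The groups did not overlap, although the highest ΔNFATC4 library lay close to the lowest mock library. CDH11 fell by 0.61 on the log2 scale (SE 0.15, edgeR adjusted p = 0.00945), or 1.52-fold, and lost the call without ΔNFATC4 replicate 3 (adjusted p = 0.0563 from edgeR) and with all 15 libraries fitted together (adjusted p = 0.885). CDH2 (ENSG00000170558) stood at 228, 216 and 236 CPM in ΔNFATC4 cells and at 199, 221, 218 and 226 CPM in mock cells, and the groups overlapped. Its log2 difference was 0.07, with a 95% interval of −0.04 to 0.19 (adjusted p = 0.482 from edgeR).

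Among the transcription factors SNAI2 was lower and the other 3 were not called. SNAI2 (ENSG00000019549), which encodes Slug, stood at 45.0, 43.3 and 46.0 CPM in ΔNFATC4 replicates 1 to 3. In mock replicates 1 to 4 it stood at 52.5, 50.6, 50.4 and 53.0 CPM. The groups did not overlap and each varied little within itself. SNAI2 fell by 0.20 on the log2 scale (SE 0.06, edgeR adjusted p = 0.0401), a 1.15-fold lower level close to the threshold. The adjusted p ran from 0.0178 to 0.181 over 15 alternatives, of which 7 lost the call, among them the fits without any 1 of the 3 ΔNFATC4 libraries (0.133, 0.181 and 0.0894 without replicates 1, 2 and 3) and those without mock replicate 3 (0.0573) or 4 (0.0929).

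ZEB1 (ENSG00000148516) was at 12.5, 12.3 and 15.4 CPM in ΔNFATC4 cells and at 8.81, 14, 11.5 and 12.9 CPM in mock cells. ZEB2 (ENSG00000169554) was at 28.7, 32.9 and 28.8 CPM beside 29.4, 35.1, 31.9 and 34.2 CPM. TWIST1 (ENSG00000122691) was at 15.6, 15.1 and 16.0 CPM beside 18.1, 17.8, 16.9 and 15.9 CPM. In all 3 genes the ΔNFATC4 and mock libraries overlapped. The 95% intervals of the log2 difference were −0.08 to 0.43 for ZEB1, −0.27 to 0.04 for ZEB2 and −0.31 to 0.02 for TWIST1, with adjusted p values from edgeR of 0.431, 0.411 and 0.310. ZEB1 and ZEB2 each have an antisense neighbor, and since the strand setting of the counting is not given in the sources used here, reads of the gene and its neighbor may not have been told apart.

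THY1 (ENSG00000154096), which encodes the surface glycoprotein CD90 of fibroblasts, neurons and thymocytes, was scarce. It had 18, 18 and 11 counts in ΔNFATC4 replicates 1 to 3 and 3, 4, 2 and 6 counts in mock replicates 1 to 4. The means were 0.695 ± 0.102 CPM (SD, n = 3) and 0.153 ± 0.0524 CPM (SD, n = 4), and the groups did not overlap. The log2 fold change was 2.12 (SE 0.39, edgeR adjusted p = 0.000818). LUM (ENSG00000139329), which encodes the small leucine-rich proteoglycan lumican that organizes collagen fibrils, had 19, 13 and 9 counts in ΔNFATC4 replicates and 3, 5, 6 and 5 in mock replicates. Again no mock library reached the lowest ΔNFATC4 library. LUM was at 0.601 ± 0.151 CPM (SD, n = 3) and 0.202 ± 0.0641 CPM (SD, n = 4), with a log2 fold change of 1.59 (SE 0.40, edgeR adjusted p = 0.00924), and lost the call without ΔNFATC4 replicate 1 (adjusted p = 0.0836) and with all 15 libraries fitted together (adjusted p = 0.104). With at least 50 counts asked for in 3 libraries neither gene was tested. Both had enough counts for the main test only through the ΔNFATC4 libraries, so their calls depended on a higher level there.

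The 3 genes higher in ΔNFATC4 cells, FN1, THY1 and LUM, and the 3 that were lower, VIM, CDH11 and SNAI2, are also those whose libraries did not overlap. Over all genes tested, 12.4% did not overlap and were higher and 11.9% did not overlap and were lower. FN1, THY1 and LUM were all past the fold change of 2, as were 2.18% of all genes in that direction. THY1 and LUM were tested only through the ΔNFATC4 libraries, so of the 3 higher genes FN1 alone can be set beside these shares.

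**Figure D2:**
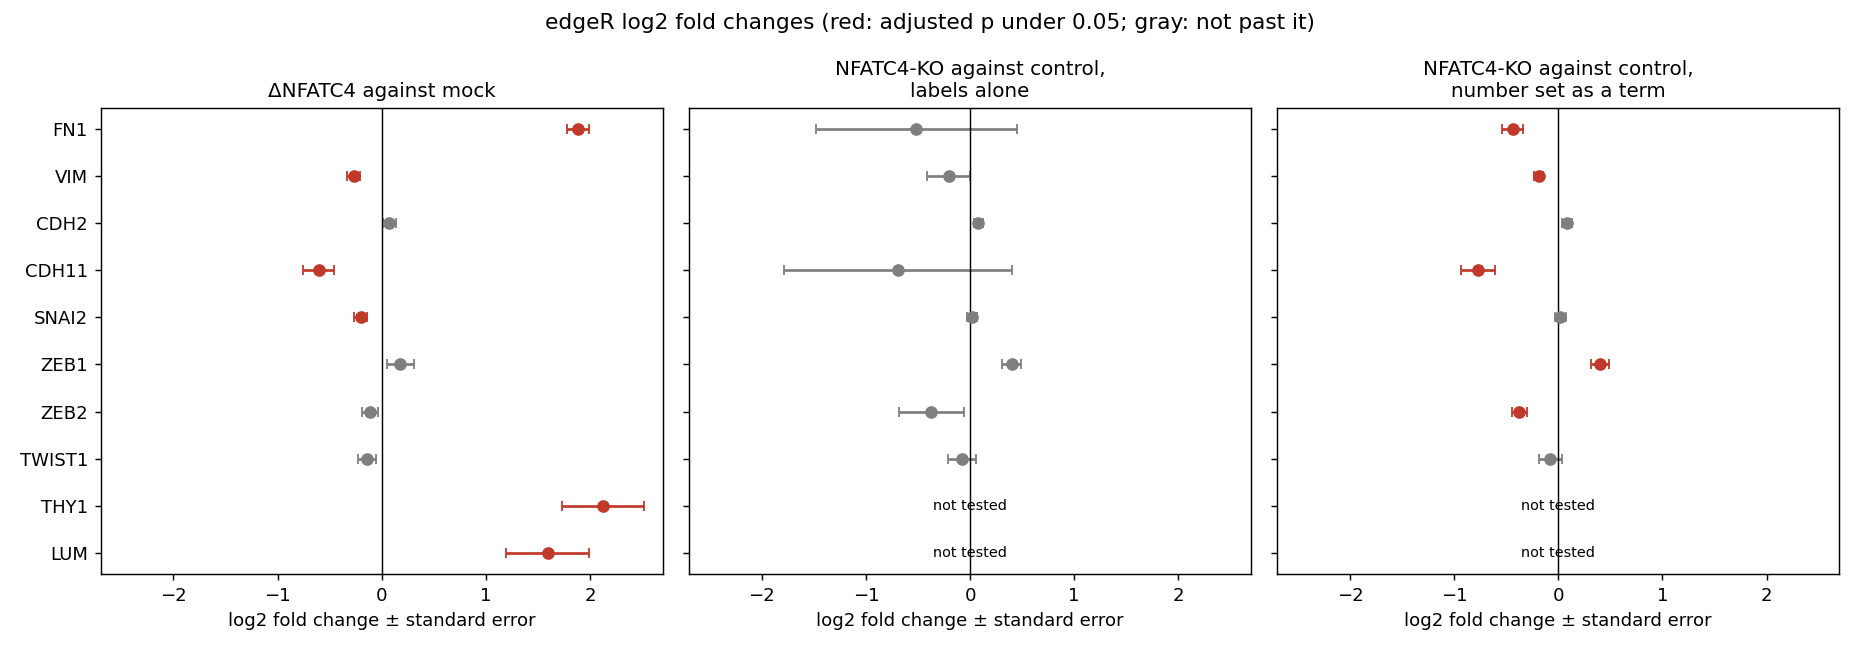
Log2 fold change of each of the 10 genes with its standard error (horizontal bars), from edgeR, for ΔNFATC4 against mock, for the libraries labelled NFATC4-KO against control by label alone, and for the same with the number set as a term, with red for an adjusted p under 0.05. FN1 lies at 1.88 on the first axis, and between the labels the bars of FN1, VIM, CDH11 and ZEB2 are shorter once the number set is a term.

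Per kilobase of exon, a scale used to set levels of different genes side by side, VIM led in every group. The length is the union of annotated exons, so close ranks and ratios between genes depend on the annotation. It is 26151 bases for ZEB2 and 8650 for ZEB1, which were at 32.6 and 11.8 CPM in mock cells. In mock cells VIM was at 196 ± 15.1 CPM per kilobase (SD, n = 4), CDH2 at 25.2 ± 1.38, SNAI2 at 15.7 ± 0.402 and TWIST1 at 8.60 ± 0.497, and no neighbors in this order overlapped. ZEB1 (1.36 ± 0.259 CPM per kilobase) and ZEB2 (1.25 ± 0.0977) followed and overlapped each other, ahead of FN1 at 0.885 ± 0.167 and CDH11 at 0.503 ± 0.0939. LUM at 0.0756 ± 0.0240 and THY1 at 0.0222 ± 0.00760 CPM per kilobase were the lowest. In ΔNFATC4 cells the order was the same except that FN1, at 3.27 ± 0.139 CPM per kilobase (SD, n = 3), moved from rank 7 to rank 5, above ZEB1 and ZEB2 without overlap. The ratio of VIM to FN1 on this scale was 229 ± 60.6 (SD, n = 4) in mock cells and 49.6 ± 3.00 (SD, n = 3) in ΔNFATC4 cells. CDH2 exceeded CDH11 by 51.1 ± 7.63 times in mock cells and by 81.6 ± 14 times in ΔNFATC4 cells.

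**Figure D3:**
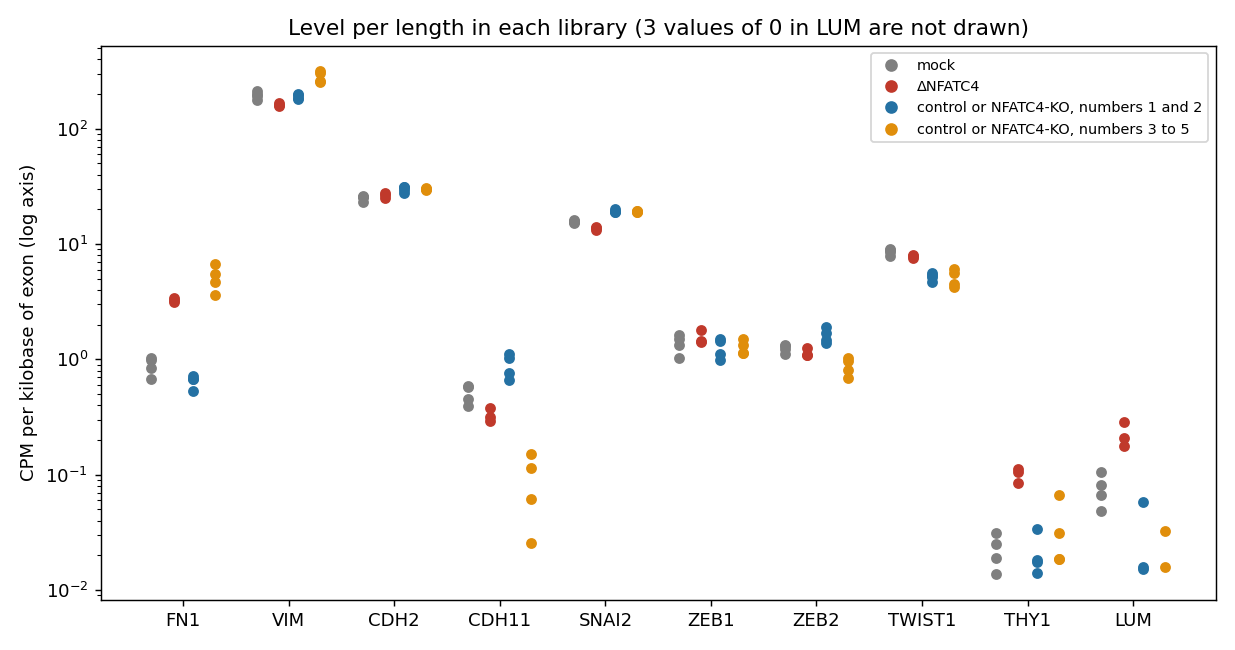
Level of the 10 genes per length in each library, in CPM per kilobase of exon on a log axis, with 1 point per library and 3 LUM values of 0 left out. VIM is highest throughout, and in FN1 and CDH11 numbers 1 and 2 lie apart from numbers 3 to 5.

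Other genes of adhesion and matrix were looked at as lists, beside 13.8% of all genes tested that were called in either direction. The called genes BGN, ASPN, CTNND2 and KRT8 of these lists, like THY1 and LUM, had enough counts to be tested only through the ΔNFATC4 libraries, with 0 of the 4 mock libraries at the 0.426 CPM that was asked of 3 libraries, so their calls depended on a higher level there and are given as values. Of 14 fibronectin receptors and matrix assembly genes 11 were tested, of which 4 rose and 1 fell in ΔNFATC4 cells. The integrin subunit ITGB5 rose from 16.4 ± 1.20 CPM (SD, n = 4) in mock to 33.9 ± 0.557 CPM (SD, n = 3), a log2 fold change of 1.05 (adjusted p = 8.49e-09 from edgeR). ITGA5, the α subunit of the main fibronectin receptor, rose by 0.57 on the log2 scale (adjusted p = 4.21e-06 from edgeR), with the matrix protein gene TNC (1.02, adjusted p = 2.82e-05) and the heparan sulfate proteoglycan gene SDC4 (0.32, adjusted p = 0.00274). SPARC, a collagen-binding matrix protein gene, fell by 0.21 (adjusted p = 0.0144 from edgeR). ITGB1, the partner of ITGA5, was at 327 and 305 CPM and was not called (log2 difference 0.11, adjusted p = 0.321 from edgeR). The median log2 fold change of the list was 0.11.

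Of 11 small leucine-rich proteoglycan genes related to LUM, 3 were tested, among them BGN and ASPN through the ΔNFATC4 libraries alone. BGN stood at 0.114 ± 0.120 CPM in mock (SD, n = 4) and at 1.37 ± 0.0954 CPM with ΔNFATC4 (SD, n = 3). ASPN was at 0.740 ± 0.280 CPM in ΔNFATC4 cells (SD, n = 3), and the 4 mock libraries held 1 count in all. DCN, the tested gene of this list that was not called, had a log2 difference of 0.11 (adjusted p = 0.856 from edgeR). Of 9 other type III and IV intermediate filament genes 7 were tested. NES rose by 0.73 (adjusted p = 0.00591) and NEFH by 0.35 (adjusted p = 0.0110), and NEFL fell by 0.51 on the log2 scale (adjusted p = 0.000111 from edgeR).

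Of 21 other cadherins 8 were tested and CDH24 alone was called, lower by a log2 fold change of −0.52 (adjusted p = 7.72e-05 from edgeR). CDH1 was scarce, at 0.549 ± 0.0710 CPM in mock (SD, n = 4) and 0.463 ± 0.157 CPM with ΔNFATC4 (SD, n = 3), and was not called. All 8 catenins, which bind cadherins, and related genes were tested, and 2 were called. CTNND2, tested through the ΔNFATC4 libraries alone, had at most 7 counts in a mock library. It was at 0.225 ± 0.0726 CPM in mock (SD, n = 4) and 0.901 ± 0.175 CPM with ΔNFATC4 (SD, n = 3). JUP fell by 0.23 (adjusted p = 0.0452 from edgeR), while CTNNB1, at 1029 and 977 CPM, was not called. Of 21 other regulators of mesenchymal transition 15 were tested and 1 was called, the TGF-β receptor gene TGFBR2, which fell by 0.32 on the log2 scale (adjusted p = 0.00132 from edgeR). SNAI1 and TWIST2, the paralogs of SNAI2 and TWIST1, were too scarce to be tested, with at most 11 counts in a library. Of 20 epithelial genes 10 were tested and 1 was called, KRT8, which was tested through the ΔNFATC4 libraries alone. It was at 0.237 ± 0.129 CPM in mock (SD, n = 4) and 0.662 ± 0.123 CPM with ΔNFATC4 (SD, n = 3), with at most 10 counts in a mock library. KRT8 has many near-identical copies in the genome, so its counts are uncertain.

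FN1, THY1 and LUM are also genes of fibroblasts, and markers of that cell type were read beside them. Of 12 fibroblast markers 7 were tested and 3 were higher in ΔNFATC4 cells, COL3A1 (log2 fold change 1.66, adjusted p = 3.34e-11 from edgeR), ACTA2 (0.69, adjusted p = 1.56e-05) and TAGLN (0.75, adjusted p = 0.000937). The summed level of the list was 115 to 126 CPM in ΔNFATC4 and 78.7 to 82.0 CPM in mock libraries. COL3A1 had the largest difference in it, from a mean of 12.1 CPM in mock to 38.2 CPM in ΔNFATC4 cells. COL1A1 went slightly the other way, from 10.1 to 9.41 CPM. COL1A1, DCN, FAP and S100A4 were not called, COL1A2, PDGFRA, PDGFRB and PDPN were too scarce to be tested, and POSTN had a count of 0 in every library. Of 8 endothelial and 8 leukocyte markers, ESAM (log2 fold change 1.00, adjusted p = 0.000675 from edgeR) and CD68 were called higher. CD68 had 2 of 4 mock libraries at the level asked of 3. It was tested only through the ΔNFATC4 libraries, so its call depended on a higher level there. Its level was 0.389 ± 0.140 CPM in mock (SD, n = 4) and 1.42 ± 0.185 CPM with ΔNFATC4 (SD, n = 3). In the adrenocortical list MC2R (0.97, adjusted p = 1.77e-06 from edgeR), HSD3B2 (0.61, adjusted p = 4.48e-05), CYP21A2 and SCARB1 rose and CYP17A1 fell by 0.45 on the log2 scale (adjusted p = 7.72e-05 from edgeR). The part of other cells in the FN1, THY1 and LUM values was not tested, and in bulk RNA fewer cells of a type and less RNA per cell cannot be told apart.

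Between libraries with the NFATC4-KO label and those with the control label, 0 of the 8 genes tested were called by edgeR and 1, ZEB1, had an unadjusted p under 0.05, beside 0% of 13868 genes called and 1257 at an unadjusted p under 0.05. THY1 and LUM were too scarce to be tested there. ZEB1 stood at 8.55, 9.56, 9.82 and 9.90 CPM in replicates 1 to 4 labelled control and at 13, 12.5, 11.4 and 13.1 CPM in replicates 1, 2, 3 and 5 labelled NFATC4-KO. The libraries labelled NFATC4-KO were all above those labelled control, with a log2 fold change of 0.40 (SE 0.09, edgeR adjusted p = 0.27). DESeq2 called ZEB1 (adjusted p = 0.0415) among 167 genes, limma-voom called 0 of the 8 and 51 genes in all, and a fit of all 15 libraries 0 of the 8 and 62 genes. CDH2, at 240.1 to 257 CPM under the control label and 258 to 270.1 CPM under the NFATC4-KO label, also did not overlap (log2 difference 0.08, adjusted p = 0.677 from edgeR), as did 3.74% of all genes in that direction and 3.15% in the other, in which none of the 8 did. With the replicate number as a block, control 4 and NFATC4-KO 5, which have no partner, were left out. CDH11 was called lower in the libraries labelled NFATC4-KO in that fit (log2 fold change −0.63, adjusted p = 0.0388 from edgeR). It called 139 genes in all, 0.317% higher and 0.684% lower.

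FN1, VIM, CDH11 and ZEB2 split by replicate number under both labels. Numbers 1 and 2 of both labels, 4 libraries, were therefore set beside control 3 and 4 and NFATC4-KO 3 and 5, the other 4. These sets cross the labels and were proposed with earlier results of these libraries known, so the differences are described and not tested. Of 13868 genes, 37.6% did not overlap between the sets, 17.6% higher and 20% lower in numbers 3 to 5, or 3.21% and 4.28% when a fold of over 2 was also asked for. Of the 8 genes, FN1 and VIM did not overlap and were higher in numbers 3 to 5, CDH11 and ZEB2 did not overlap and were lower, and CDH2, SNAI2, ZEB1 and TWIST1 overlapped. FN1 and CDH11 were past the fold of 2.

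FN1 was at 12.4 and 11.7 CPM in control 1 and 2 and at 11.5 and 9.18 CPM in NFATC4-KO 1 and 2. It was at 117 and 94.7 CPM in control 3 and 4 and at 81.5 and 62.8 CPM in NFATC4-KO 3 and 5. The lowest of the second set held over 5 times the FN1 of the highest of the first. The set means were 11.2 ± 1.38 and 88.9 ± 22.7 CPM (SD, n = 4), 7.95-fold apart, and 1.17% of all genes tested differed by more. CDH11 went the other way, from 14.8, 13.7, 10.1 and 8.76 CPM in control 1 and 2 and NFATC4-KO 1 and 2 to 1.51, 2.02, 0.811 and 0.343 CPM in control 3 and 4 and NFATC4-KO 3 and 5. In the last of these the CDH11 level rests on 8 counts. The set means were 11.9 ± 2.88 and 1.17 ± 0.740 CPM (SD, n = 4), 10.1-fold lower in numbers 3 to 5, with 0.909% of genes differing by more.

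VIM was at 1012, 1043, 937 and 959 CPM in control 1 and 2 and NFATC4-KO 1 and 2. It was at 1560, 1636, 1353 and 1327 CPM in control 3 and 4 and NFATC4-KO 3 and 5. The sets did not overlap and the means were 988 ± 48.4 and 1469 ± 152 CPM (SD, n = 4), 1.49-fold apart. ZEB2 was at 49.6, 44.6, 38.1 and 36.0 CPM in numbers 1 and 2 and at 26.7, 25.3, 21.3 and 18.0 CPM in numbers 3 to 5, taken in the same order. Its means were 42.1 ± 6.19 and 22.8 ± 3.94 CPM (SD, n = 4), 1.85-fold lower in numbers 3 to 5. The other genes stayed close between the sets. CDH2 was at 257 ± 14.2 and 257 ± 5.62 CPM, SNAI2 at 63.7 ± 1.58 and 62.7 ± 0.460, ZEB1 at 10.9 ± 2.19 and 11.1 ± 1.54, and TWIST1 at 10.4 ± 0.791 and 10.2 ± 1.79 CPM (SD, n = 4). THY1 had 2 to 10 counts in these 8 libraries and LUM 0 to 4, and neither separated the sets.

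Per length, FN1 stood at rank 8 of the 10 genes in numbers 1 and 2, at 0.650 ± 0.0804 CPM per kilobase (SD, n = 4) and overlapping CDH11. It stood at rank 4 in numbers 3 to 5, at 5.16 ± 1.32 CPM per kilobase and overlapping TWIST1. The ratio of CDH2 to CDH11 per length was 26.2 to 47.2 in numbers 1 and 2 and 192 to 1193 in numbers 3 to 5. That of ZEB1 to ZEB2 was 0.521 to 1.05 and 1.11 to 2.20. The sets nearly met, with a mean of 1.04 in NFATC4-KO 1 and 2 and of 1.15 in control 3 and 4. How often ratios of other genes separate the sets was not computed. The ratio of VIM to FN1 was 297 ± 36.0 and 56.9 ± 10.6 (SD, n = 4), beside 229 in mock and 49.6 in ΔNFATC4 cells.

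With the number set as a term, 5 of the 8 genes were called between the labels in edgeR, beside 4.39% of all genes higher and 6.04% lower in the libraries labelled NFATC4-KO. This fit was added after the data were seen, with sets taken from these same libraries. The labels alone had called 0 of the 8 genes. FN1 (log2 fold change −0.44, SE 0.10, adjusted p = 0.0103), VIM (−0.19, 0.05, 0.0129), CDH11 (−0.77, 0.16, 0.00593) and ZEB2 (−0.38, 0.07, 0.00274) were lower under the NFATC4-KO label, and ZEB1 (0.40, 0.09, 0.00888) was higher. CDH2, SNAI2 and TWIST1 were not called. FN1 lost the call without NFATC4-KO replicate 5 (−0.31, adjusted p = 0.0752 from edgeR), and VIM lost it without control replicate 4 (adjusted p = 0.0788), NFATC4-KO replicate 3 (0.0518) or NFATC4-KO replicate 5 (0.0608). When the replicate number replaced the set as the block, control 4 and NFATC4-KO 5, which have no partner, were left out of the fit. CDH11 kept its call there and the other 4 did not. Their adjusted p values from edgeR were 0.127 for FN1, 0.239 for VIM, 0.122 for ZEB1 and 0.0832 for ZEB2. The change of block and the loss of these libraries cannot be told apart.

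Within numbers 1 and 2, where 7.88% of genes were called higher and 8.7% lower, CDH11 (−0.60, adjusted p = 0.000753 from edgeR) and ZEB2 (−0.34, adjusted p = 0.00217) were lower and ZEB1 higher (0.49, adjusted p = 0.00326) in the libraries labelled NFATC4-KO. Within numbers 3 to 5, where 5.11% were called higher and 4.4% lower, FN1 (−0.55, adjusted p = 0.000126 from edgeR), VIM (−0.25, adjusted p = 0.00820), CDH11 (−1.59, adjusted p = 0.00568) and ZEB2 (−0.40, adjusted p = 0.0241) were lower. CDH11 and ZEB2 were thus lower under the NFATC4-KO label in both sets, in fits with 2 libraries per label. NFATC4 itself was lower under that label within numbers 1 and 2 (−0.33, adjusted p = 0.000467 from edgeR) and not called within numbers 3 to 5 (0.17, adjusted p = 0.287). The test of whether the label difference varied between the sets called 0.31% of all genes (0.252% with a higher and 0.0577% with a lower value in numbers 3 to 5) and 0 of the 8 in edgeR, and 0 of the 8 in DESeq2. CDH11 had the lowest p of the 8 in it (difference of log2 fold changes −1.0, unadjusted p = 0.0130, adjusted p = 0.159 from edgeR) and was the 1 gene of the 8 at an unadjusted p under 0.05.

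FN1 was thus high in 2 settings with unlike NFATC4 RNA levels. In ΔNFATC4 cells it stood at 56.3 CPM with NFATC4 at 344 ± 14.8 CPM (SD, n = 3), and at 88.9 CPM with NFATC4 at 52.5 ± 5.40 CPM (SD, n = 4) in numbers 3 to 5. It was at 15.2 CPM in mock cells with NFATC4 at 94.6 ± 8.03 CPM and at 11.2 CPM in numbers 1 and 2 with NFATC4 at 101 ± 13.8 CPM (SD, n = 4). CDH11 was lower than in mock or in numbers 1 and 2 in the same 2 settings, at 4.37 and 1.17 CPM. VIM did not move alike in them, being lower in ΔNFATC4 cells than in mock and higher in numbers 3 to 5 than in numbers 1 and 2. SNAI2, at 63.7 ± 1.58 and 62.7 ± 0.460 CPM, and CDH2 were level across the sets. Reads of the plasmid count towards NFATC4 in ΔNFATC4 cells, and each set of numbers pools both labels. A link between NFATC4 and these genes was not tested.

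**Figure D4:**
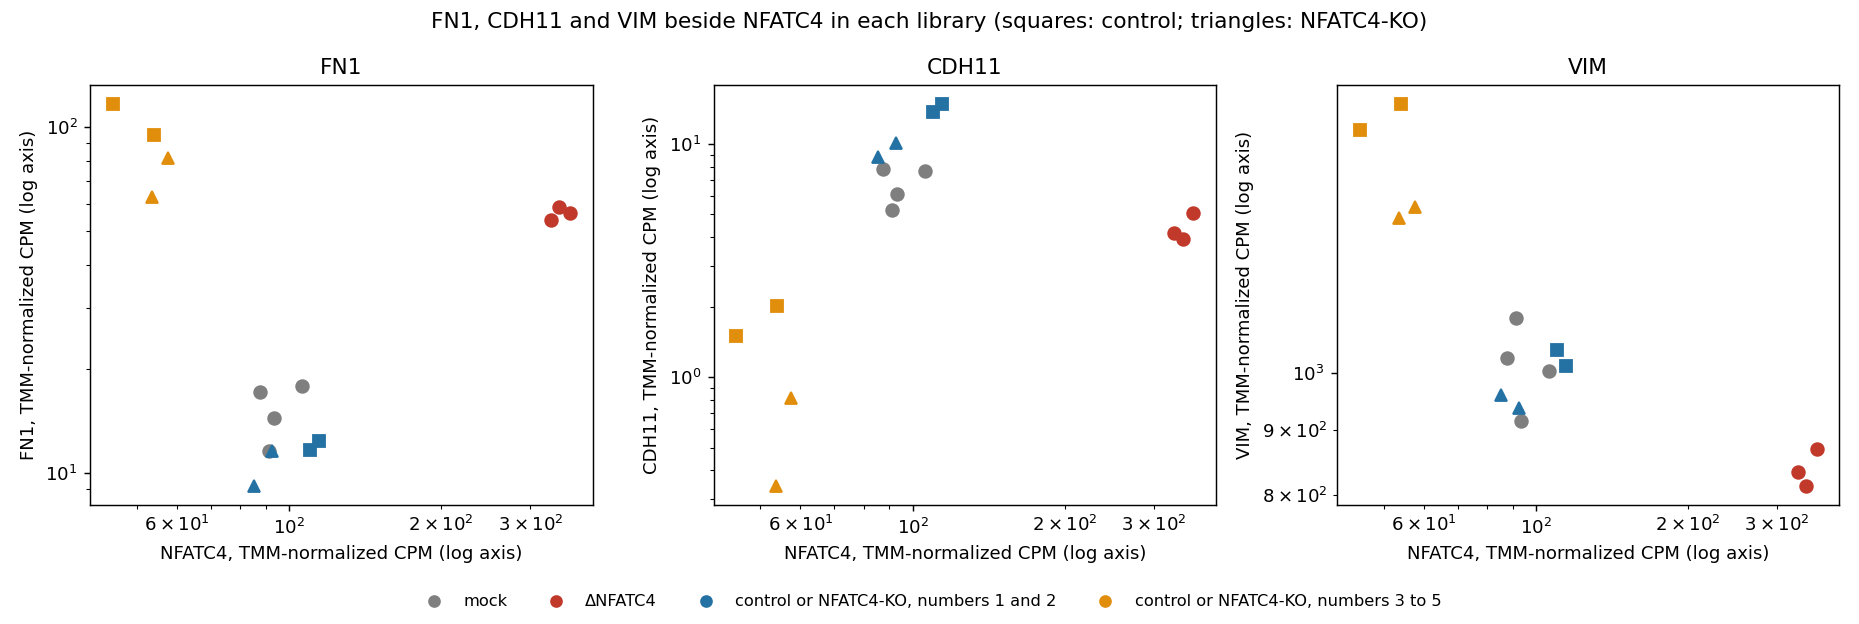
FN1, CDH11 and VIM beside NFATC4 in each of the 15 libraries, all in TMM-normalized CPM on log axes, with circles for mock and ΔNFATC4, squares for control and triangles for NFATC4-KO. FN1 is above 50 CPM both in the ΔNFATC4 libraries at the right and in numbers 3 to 5 at the left, where NFATC4 is between 44.8 and 57.5 CPM.

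The counts of each list stand beside 17.6% of all genes that were higher without overlap in numbers 3 to 5 and 20% that were lower. Among the lists, 5 of 12 tested fibronectin receptor and assembly genes did not overlap and were higher in numbers 3 to 5, with ITGB5 at 18.0 and 61.1 CPM, ITGA5 at 34.9 and 56.0 CPM and FBN1 at 30.9 and 82.6 CPM, and 2 were lower, with the crosslinking enzyme gene TGM2 at 31.9 and 1.81 CPM. Of 15 other mesenchymal regulators 3 were higher and 5 lower, with FOXC2 at 0.323 and 6.11 CPM, TGFB2 at 22.1 and 41.6 CPM and TGFBR1 at 213 and 111 CPM. Of 9 epithelial genes 3 were higher and 1 lower, with KRT7 at 0.306 and 2.45 CPM and KRT18 at 1.57 and 0.183 CPM. CDH1, too scarce to be tested, had 1 count over the 4 libraries of numbers 3 to 5 and a mean of 0.584 CPM in numbers 1 and 2. COL3A1, which was higher with FN1 in ΔNFATC4 cells, was at 11.8 and 10.3 CPM and overlapped between the sets. The summed fibroblast markers were 84.2 to 99.4 CPM in numbers 1 and 2 and 89.4 to 131 CPM in numbers 3 to 5. Of the 6 tested, ACTA2 (21.7 and 39.4 CPM) and TAGLN (2.71 and 3.70 CPM) were higher without overlap, COL1A1 (11.5 and 5.65 CPM) was lower and 3 overlapped. Of the 12 adrenocortical genes 6 were lower without overlap, among them STAR (616 and 258 CPM), CYP17A1 (152 and 72.2 CPM) and CYP21A2 (101 and 39.1 CPM), NR0B1 was higher (6.06 and 11.8 CPM) and 5 overlapped. Their part in the split of FN1, VIM, CDH11 and ZEB2 was not tested. The genes of these lists named for the sets were chosen after their values were seen, and none of the lists had a call between the labels alone, where edgeR called no gene.

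Likeness to each gene over the 15 libraries was measured as the root mean square difference of centred log2 CPM over 14367 other genes. VGF, MMP9 and EGFR lay nearest to FN1, at 0.41, 0.44 and 0.45, against a median of 1.30 over all genes. VGF, a secreted neuropeptide precursor gene, was at 79.0 ± 6.55 CPM in mock and 202 ± 1.54 CPM in ΔNFATC4 cells, and at 56.8 ± 10.1 and 276 ± 27.5 CPM in the sets of numbers 1 and 2 and 3 to 5. It was therefore high in the same libraries as FN1. Nearest to VIM were CSRP2 (0.09), NIPSNAP2 (0.10) and AVPI1 (0.10), and DENND2D (0.47) and MAGEA10 (0.48) were among the 3 nearest to CDH11. SNAI2 lay nearest to PHKA2, ZNF449 and AMD1 (0.08, 0.08 and 0.09), THY1 to COL3A1, DIRAS1 and RAPGEF4 (0.39, 0.39 and 0.42) and LUM to MC2R, CD82 and BIK (0.40, 0.42 and 0.44). These are descriptions over libraries that share groups, and carry no test.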

How the data were processed

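From stranded mRNA libraries, the authors trimmed adaptors (fastp), mapped reads to GRCh38.p13 (STAR) and counted reads by gene (featureCounts). They deposited raw counts for each library, for 21493 genes, of which 21400 were matched to a symbol. Tool versions, strand and multi-mapping settings are not given in the sources used here. The authors tested genes with DESeq2 and asked for a fold change over 2.

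TMM factors, CPM and tests were computed in R 4.3.3 from these counts, using DESeq2 1.42.0, edgeR 4.0.16 and limma 3.58.1. filterByExpr removed genes with few counts. edgeR's quasi-likelihood test with robust shrinkage was fitted to the 3 ΔNFATC4 and 4 mock libraries (14094 genes), and separately to the 8 libraries labelled control and NFATC4-KO (13868 genes), without a block. Benjamini-Hochberg adjustment ran over all genes tested, with a call at an adjusted p under 0.05. Standard errors are log2 fold changes, without their sign, over the root of the F value, and a 95% interval is 1.96 standard errors to each side. CPM per kilobase divides by the union of annotated exons. The scripts were tested on simulated counts.

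Among libraries labelled control and NFATC4-KO, same-numbered libraries deviated together from their group means (correlations 0.810, 0.788 and 0.710 for numbers 1, 2 and 3 over 14368 genes). The number was used as a block in an alternative fit only. This block comes from the data, and under both labels number 3 lies in another set than numbers 1 and 2. A split between the sets also gives such correlations, so they cannot show that equal numbers are pairs. No 2 replicates agreed within sampling noise (lowest chi-square per degree of freedom 2.25).

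The genes, the lists, the sets of numbers and the fit of 7 and of 8 libraries were chosen with earlier results of these data known. All 10 genes are named, with up to 4 called genes of each list and, for called genes, the 3 nearest genes, of which 1 is not reported here. Alternatives were all 15 libraries in 1 fit, DESeq2 size factors, no filter, at least 50 counts in 3 libraries, DESeq2, limma-voom, no robust shrinkage, the replicate block, the number set as a term, each set alone, and each library left out. The replicate block kept only the numbers found in both groups compared. Gene positions are from GENCODE on GRCh38 and promoters from RefSeq on GRCh38.p14.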

Additional observations from a re-analysis of the deposited data

Results flagged for a closer look

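THY1 in NFATC4-KO replicate 1, at 0.0969 CPM, lay far below the other 3 libraries of its label, which were at 0.126 to 0.129 CPM. The level rests on 2 counts beside 3 counts in each of the others, so the gap is 1 count. Of 30 gene and group combinations examined for a library standing apart, this was the 1 found, and chance marks about 1 in 20.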

How the results depend on the processing

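In ΔNFATC4 against mock, fitting all 15 libraries together lowered the genes called from 1944 to 530. It left 1 of the 10 genes higher (THY1) and 1 lower (SNAI2). THY1 had enough counts for the main test only through the ΔNFATC4 libraries, so its call depended on a higher level there. Asking for 50 counts in 3 libraries left 1 higher. Leaving out 1 library gave 1102 to 2560 genes, 2 to 3 of the 10 higher and 0 to 3 lower, with 0 lower without ΔNFATC4 replicate 3. ΔNFATC4 and mock libraries of equal number showed no shared deviation (correlations 0.101, −0.0945 and 0.0427). The replicate block, a fit that left out mock replicate 4, lost SNAI2 (adjusted p = 0.114 from edgeR). SNAI2 also lost its call without mock replicate 4 and no block. No sign turned in this comparison for the 10 genes under 15 alternatives (14 for THY1 and LUM).

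Between the labels alone, genes called went from 0 to 62 with all 15 libraries, 167 with DESeq2, 51 with limma-voom, 139 with the replicate block, 1446 with the number set as a term, 2314 within numbers 1 and 2 and 1308 within numbers 3 to 5, and to 0 to 1 with 1 library left out. Of the 8 genes, 1 was higher with DESeq2, 1 with the number set and 1 within numbers 1 and 2, and 1 was lower with the block, 4 with the number set, 2 within numbers 1 and 2 and 4 within numbers 3 to 5. Signs turned for FN1 with limma-voom (1.06) and without control replicate 3 (0.060, from −1.09 to 0.060 over libraries left out), for VIM with limma-voom (0.10), for TWIST1 without control replicate 4 (0.0033, from −0.15 to 0.0033), and for NFATC4 within numbers 3 to 5 (0.17) and without control replicate 1 (0.049) or 2 (0.018), from −0.36 to 0.049. With the number set as a term, limma-voom called 2633 genes, leaving out 1 library gave 624 to 2139 genes and 2 to 4 of the 8 lower, with 2 without NFATC4-KO replicate 5, and TWIST1 turned to 0.027 and 0.0081 without control replicate 4 and NFATC4-KO replicate 3, from −0.15 to 0.027. The test of the label difference by set called 43 genes in edgeR and 228 in DESeq2. Of the sets, 2 genes were lower without overlap over both labels and 4 in the libraries labelled NFATC4-KO alone. The latter set 2 libraries beside 2, which separate more easily. Its share over all genes was not computed, so the larger count is not read as a result about these genes. Why these values moved was not tested. Depth limits THY1, LUM and CDH11 in numbers 3 to 5, which rest on few counts.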
